A study of Saccharomyces cerevisiae with 9 samples.

Results

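The comparison described here sets yeast whose histone H3 carries alanine in place of lysine 42 (K42A) against yeast with glutamine at the same residue (K42Q). All arrays titled K42A or K42Q belong to it, which gives 2 arrays of each and 4 of the 9 arrays of the series. The 3 wild-type arrays, with lysine kept, were used to place each side of the comparison, and the 2 arrays of the leucine mutant K42L only helped to estimate the spread between arrays. Every strain, wild type included, was a derivative of JPY12 that expressed H3 from the plasmid pEMH7. All cultures grew in rich YPD medium to log phase, at an A600 of about 0.7. The arrays of a group are biological replicates per the series' design text, and each array measured the RNA of 1 culture on 1-colour Affymetrix arrays. What was measured is transcript level relative to the rest of the same array, not RNA per cell.

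Lysine 42 lies in the part of H3 next to the DNA where it enters and leaves the nucleosome, and the title of the series names it as a methylated site. Alanine and glutamine both remove the positive charge of the lysine and the chance to methylate it. They differ in the side chain that is left: alanine has a single methyl group, whereas glutamine has a longer polar chain with an amide and is often used to imitate an acetylated lysine. A comparison of the substitutions therefore asks which transcripts depend on the residue that replaces the lysine, beside those that change with either replacement.

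The arrays fell into 2 sets by background, which the labels do not name. Background was read from annotated probe sets not matched to a single gene of this yeast. These had a median signal of 2.2 to 2.7 on the K42A arrays and wild-type replicates 2 and 3. On the K42Q and K42L arrays and wild-type replicate 1 it was 1.0 to 1.3. The background set and the substitution cannot be told apart by the 4 mutant arrays alone, so each gene was read in 2 ways. The direct reading compared K42A with K42Q as they stood. The matched reading set K42A against wild-type replicates 2 and 3 and K42Q against wild-type replicate 1, and compared these differences by fitting the background set as a block. Wild-type replicates 2 and 3 differed from wild-type replicate 1 in 28.7% of the genes tested. The K42Q side of the matched reading thus rests on a single wild-type array. A probe set of the 3′ end of 25S ribosomal RNA read 252 and 558 in K42A and 105 and 98.9 in K42Q, against 48.3 to 89.7 in wild type. The ratio of 3′ to 5′ ACT1 signal was 1.18 and 1.22 in K42A and 1.06 and 1.11 in K42Q, against 1.18 to 1.19 in wild type. The part of either in the results below was not tested. Markers of other cell types were read as sums of signals on each array, and 0 of these markers was at 0. The 5 genes of mating type a summed to 3592 and 3411 in K42A and to 3644 and 4226 in K42Q, against 4912 to 5940.1 in wild type. The 4 genes of mating type alpha summed to 336 and 369 in K42A and to 283 and 257 in K42Q, against 170 to 212 in wild type. The 4 sporulation genes, markers of a diploid, summed to 197 and 200 in K42A and to 169 and 153 in K42Q, against 82.5 to 90.9 in wild type. The a genes thus stood far above the alpha genes on all arrays, and both mutants lay above wild type for the alpha and sporulation genes, K42A somewhat further. The part of these markers in the results below was not tested.

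Transcript levels differed between K42A and K42Q in many genes. By the direct reading 407 of 4087 genes tested (9.96%) were higher and 333 (8.15%) were lower in K42A than in K42Q, at a Benjamini-Hochberg adjusted p under 0.05 in limma. By the matched reading 357 genes (8.74%) were higher and 405 (9.91%) lower. Both readings called 165 genes higher (4.04%) and 142 lower (3.47%), and 0 genes were called in opposite directions, although 17 were with array weights and 22 with scaling to the spiked-in control RNAs. The median difference of all genes was -0.01 on the log2 scale by the direct and 0.01 by the matched reading. Differences were mostly modest: 14 higher and 11 lower genes were at least 2-fold apart by the direct reading, and 20 and 26 by the matched one. All 307 genes called both ways had K42A and K42Q arrays that did not overlap, but so few arrays separate easily: the K42A arrays lay above both K42Q arrays in 34.3% of all genes tested and below both in 35.7%. Centring each array on its median signal changed the balance to 307 higher and 469 lower by the direct reading, and to 286 and 512 by the matched one. Scaling to the spiked-in control RNAs moved the median of all genes by 0.87 by the direct reading, and gave 2625 higher and 3 lower genes there, so every direction below is relative to the bulk of transcripts on the same array.

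**Figure D1:**
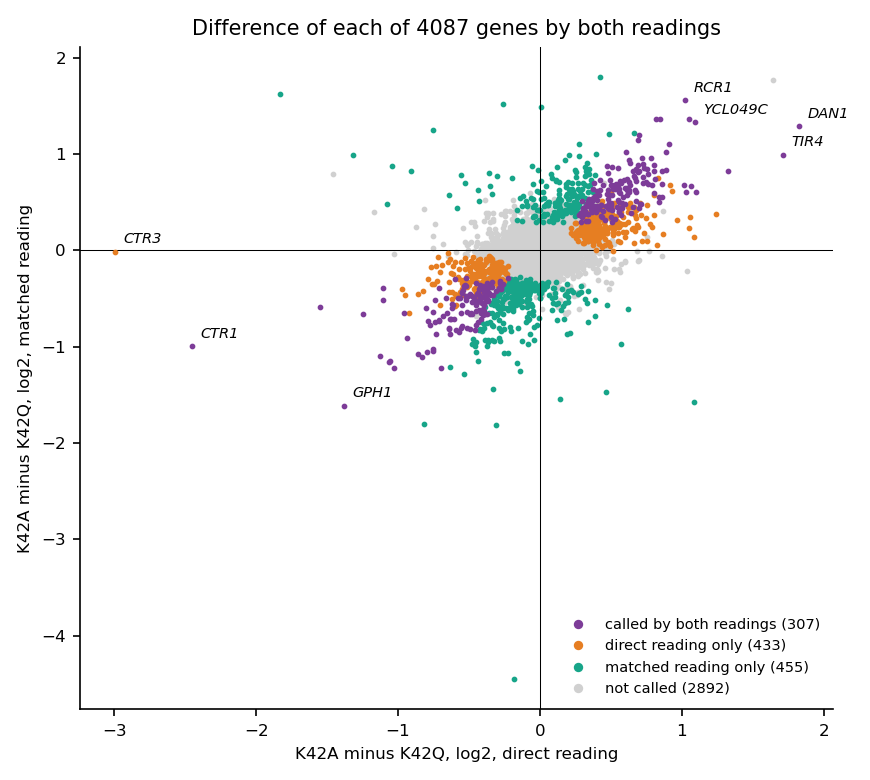
Difference between K42A and K42Q (log2) for each of 4087 genes, by the direct reading on the horizontal axis and by the matched reading on the vertical axis, with colours for the reading that called a gene. The 307 genes called both ways lie in the upper right and lower left, while CTR3 at -3.0 and -0.01 differs by the direct reading alone, and the lone point at -4.45 on the vertical axis is PHO84.

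Set beside wild type of like background, the mutants moved 1136 genes in the same direction, against 762 called different between them by the matched reading. K42A had 1111 genes higher (27.2%) and 1129 lower (27.6%) than wild-type replicates 2 and 3. K42Q had 923 higher (22.6%) and 843 lower (20.6%) than wild-type replicate 1. The genes higher in both numbered 586, which is 52.75% of those of K42A and 63.5% of those of K42Q. The genes lower in both numbered 550, or 48.7% and 65.2%. These comparisons share no array, and the differences correlated across genes with r = 0.68, given as a description since genes are not independent. Of the 1136 genes, 980 were not called different between K42A and K42Q by the matched reading.

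Stress genes head the shared part. DDR2 (YOL052C-A), a gene of the multistress response chosen here after its values were seen, had signals of 616 and 739 in K42A and of 734 and 609.6 in K42Q, against 117 and 95.7 in wild-type replicates 2 and 3 and 78.4 in replicate 1. TMA10 (YLR327C), chosen likewise, had signals of 366 and 439 in K42A and of 646 and 473 in K42Q, against 49.1 and 50.4 in wild-type replicates 2 and 3 and 83.8 in replicate 1. Both lay far above wild type in either mutant, and the mutants overlapped for DDR2, whose matched difference was -0.42 ± 0.28 (SE) with adjusted p = 0.325.

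Of the 165 genes higher in K42A by both readings, 72 were raised in K42A and not called in K42Q, 29 were lowered in K42Q and not called in K42A, and 21 were raised in K42A and lowered in K42Q, each against wild type of like background. Another 27 were raised in both mutants and 16 lowered in both, to different degrees. Of the 142 genes lower in K42A, 50 were raised in K42Q only, 42 were lowered in K42A only, and 12 were lowered in K42A and raised in K42Q. A further 34 were raised in both, 2 were lowered in both and 2 were called in neither. Over all genes tested, 30 were raised in K42A and lowered in K42Q and 34 showed the opposite. The matched reading called each of these 64 different. That call adds no support, since the matched difference is built from the same comparisons with wild type.

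**Figure D2:**
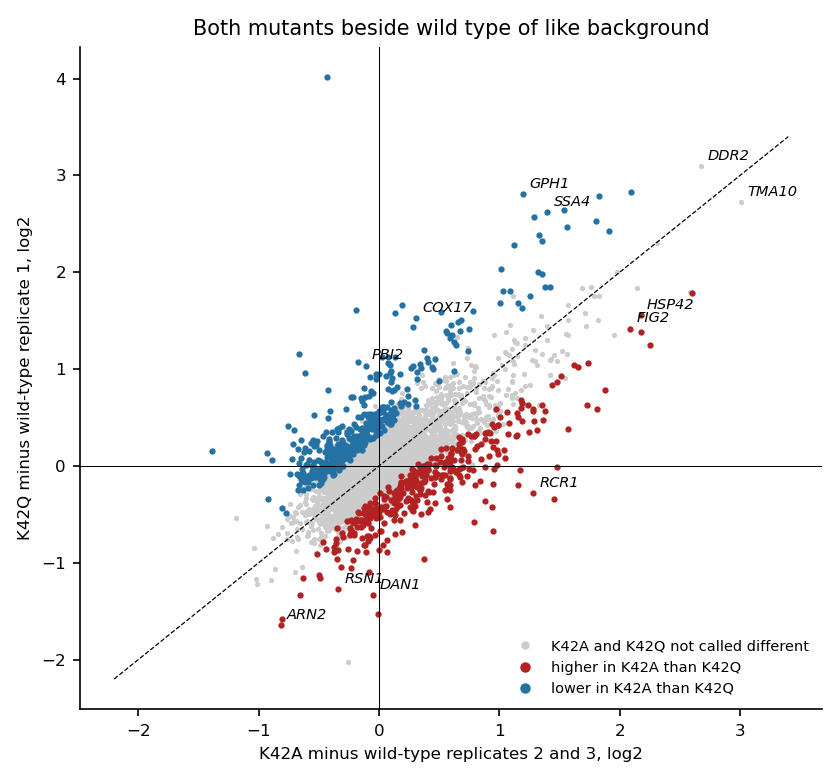
Difference of K42A from wild-type replicates 2 and 3 (log2, horizontal) and of K42Q from wild-type replicate 1 (log2, vertical) for each of 4087 genes, with the line of equal change dashed and colours for genes called between K42A and K42Q by the matched reading. Most genes lie along the dashed line (r = 0.68), GPH1, SSA4 and COX17 lie above it with larger increases in K42Q, and RCR1 and DAN1 lie below it.

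The general stress response, driven by the transcription factors Msn2 and Msn4 when growth conditions worsen, rose in both mutants and further in K42Q. Of 51 listed genes 37 were tested, and 36 were higher in K42A and 33 in K42Q than in wild type of like background, with median log2 differences of 1.09 and 1.56. Between the mutants 14 were lower and 1 higher in K42A by the direct reading (median -0.34), and 16 lower and 5 higher by the matched one (median -0.29). The shares lower were 37.8% and 43.2%, beside 8.15% and 9.91% of all genes. The shares higher were 2.70% and 13.5%, beside 9.96% and 8.74%. The largest difference of a called gene in this list was in storage carbohydrate. GPH1 (YPR160W), the glycogen phosphorylase that breaks down glycogen, had signals of 324 and 306 in K42A and of 773 and 867 in K42Q, against 139.7 and 135 in wild-type replicates 2 and 3 and 117 in replicate 1. PGM2 (YMR105C), the main phosphoglucomutase, had signals of 337 and 341 in K42A and of 779 and 643 in K42Q, against 161 and 151 in wild-type replicates 2 and 3 and 146 in replicate 1. In both genes the K42A arrays lay between wild type and K42Q, with no overlap. The GPH1 difference, K42A minus K42Q on the log2 scale as throughout, was -1.38 ± 0.11 by the direct reading (SE of the fit, n = 2 arrays each; adjusted p = 0.000772) and -1.61 ± 0.12 by the matched one (adjusted p = 5.66e-05). The PGM2 difference was -1.06 ± 0.11 and -1.16 ± 0.15. The direct count of lower genes was 9 without either K42A array, 8 or 7 without K42Q replicate 1 or 2, and 23 without wild-type replicate 1.

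The rest of the glycogen and trehalose list did not move one way. Of 14 tested genes 4 were lower and 1 higher in K42A directly, and 5 lower and 2 higher by the matched reading (3 lower without wild-type replicate 2). The shares lower were 28.6% and 35.7%, beside 8.15% and 9.91% of all genes. The shares higher were 7.14% and 14.3%, beside 9.96% and 8.74%. GLC3 (YEL011W), the glycogen branching enzyme, was the gene called higher both ways: it had signals of 293 and 325 in K42A and of 206 and 214 in K42Q, against 167 and 168 in wild-type replicates 2 and 3 and 173 in replicate 1, a difference of 0.56 ± 0.09 directly and 0.60 ± 0.12 matched. GPH1 and GLC3, which break down and build the same polymer, thus differed in opposite directions. The glycogen synthase genes parted by the matched reading alone. GSY2 gave a matched difference of -0.66 ± 0.13 (adjusted p = 0.00548) and GSY1 one of 0.86 ± 0.26 (adjusted p = 0.0389). Neither was called directly, at -0.26 and 0.12. GSY1 overlapped between the mutants, at 126 and 136 in K42A and 113 and 128 in K42Q. Its wild-type signals were 78.1 and 55.1 in replicates 2 and 3 and 110 in replicate 1. For GSY2 wild-type replicates 2 and 3 lay 0.41 above replicate 1.

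Chaperone genes, targets of heat shock factor, also tilted toward K42Q. This list shares HSP26, SSA3 and SSA4 with the general stress list, so the tilts of these lists are not separate observations. Of 28 tested, 9 were lower and 2 higher in K42A by the direct reading (median -0.30), and 13 lower and 3 higher by the matched reading (median -0.24). The shares lower were 32.1% and 46.4%, beside 8.15% and 9.91% of all genes. The shares higher were 7.14% and 10.7%, beside 9.96% and 8.74%. The median difference of the list from wild type was 0.26 in K42A and 0.58 in K42Q. HSP26 (YBR072W), a small heat shock protein that holds unfolded proteins, had signals of 1226 and 1338 in K42A and of 2260.3 and 2288 in K42Q, against 441 and 444 in wild-type replicates 2 and 3 and 364 in replicate 1. SSA4 (YER103W), an inducible Hsp70 chaperone, had signals of 1009.9 and 1158 in K42A and of 1767 and 1733 in K42Q, against 405 and 417 in wild-type replicates 2 and 3 and 285 in replicate 1. The arrays of the mutants did not overlap and both mutants lay above all wild-type arrays. The matched differences were -1.11 ± 0.09 for HSP26 and -1.22 ± 0.11 for SSA4, with adjusted p of 6.07e-05 and 0.000111 in limma. SSA3 and CPR6, also of this list, were called by the matched reading alone, at -1.28 ± 0.18 and -1.15 ± 0.09. Their direct differences were -0.53 and -0.44, and wild-type replicates 2 and 3 lay 0.75 and 0.71 above replicate 1. HSP12 (YFL014W), a small membrane-protecting heat shock protein outside this list, read 790 and 1063 in K42A and 1804 and 1699 in K42Q. It differed by -0.91 ± 0.18 by the matched reading.

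A pair of chaperone-related genes ran the other way. CUR1 (YPR158W) and BTN2 (YGR142W) encode related factors that sort misfolded proteins to storage sites. CUR1 had signals of 135 and 178 in K42A and of 100.2 and 77 in K42Q, against 96.8 and 83 in wild-type replicates 2 and 3 and 131 in replicate 1. It was higher in K42A by 0.82 ± 0.22 directly and 1.37 ± 0.24 matched (adjusted p = 0.0316 and 0.00411). BTN2 had signals of 509 and 759.6 in K42A and 444 and 346 in K42Q, and its difference of 1.22 ± 0.26 was called by the matched reading alone. Leaving out any 1 of the K42A or K42Q arrays left 1 or 2 heat shock genes lower by the direct reading, leaving out either K42L array left 4, and the count was 18 without wild-type replicate 1. The matched count stayed between 11 and 13 without any 1 array.

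**Figure D3:**
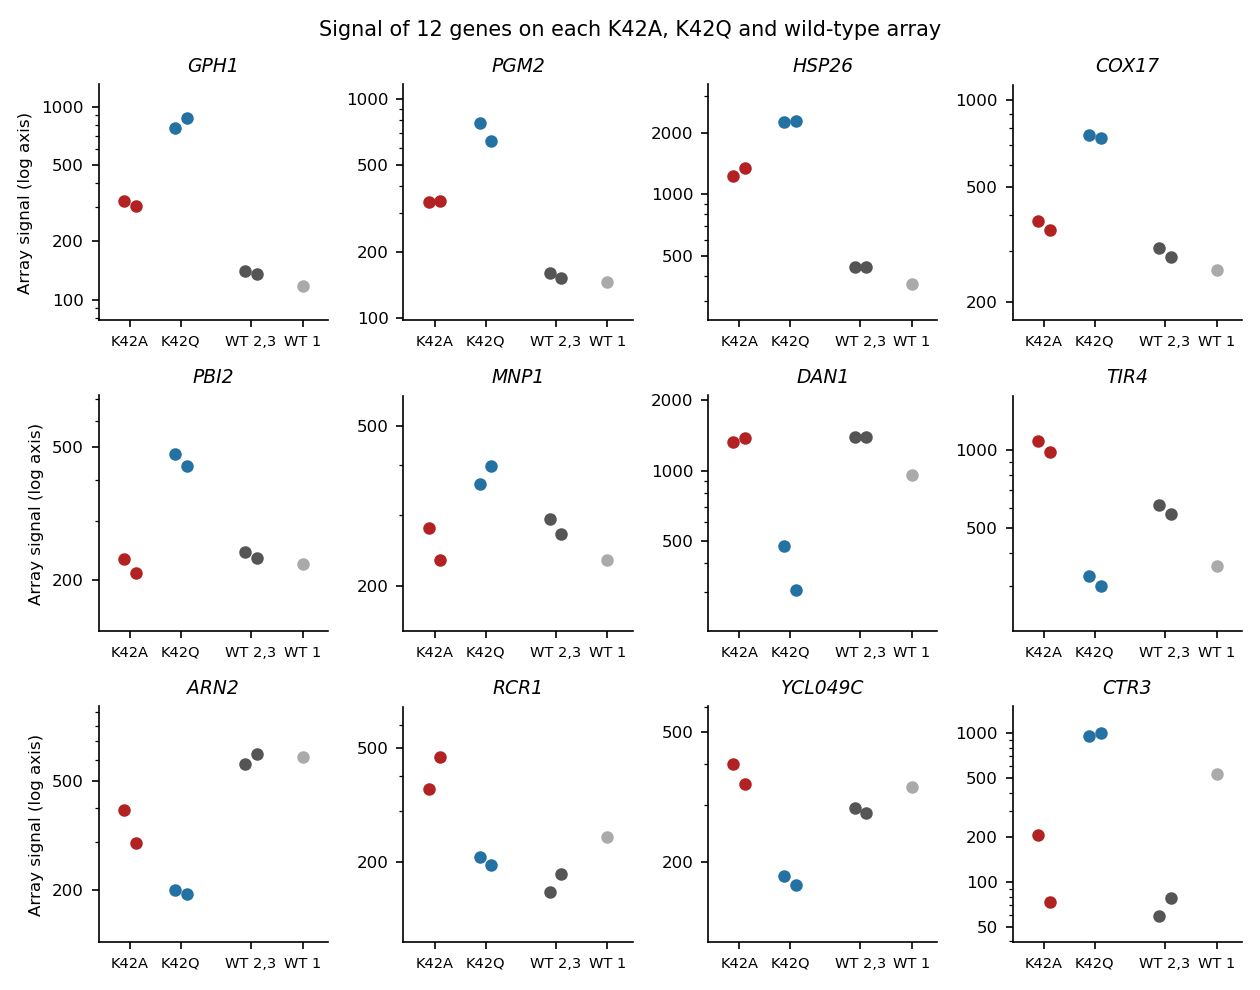
Signal (log axis) of 12 genes on each K42A, K42Q and wild-type array, with wild-type replicates 2 and 3 drawn apart from replicate 1; each point is 1 array. GPH1, PGM2, HSP26 and COX17 are highest in K42Q, DAN1 and ARN2 are lowest in K42Q, TIR4 and RCR1 are highest in K42A, and CTR3 follows the background sets.

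Genes of the mitochondrial ribosome, which makes the few proteins encoded in mitochondrial DNA, were lower in K42A than in K42Q. Of 75 tested, 33 were lower (44%, beside 8.15% of all genes) and 0 higher by the direct reading (median -0.29). By the matched reading 30 were lower (40%, beside 9.91% of all genes) and 2 higher (median -0.31), and 18 were lower by both. Against wild type of like background 49 of them were raised in K42Q (median 0.33), while in K42A 13 were raised and 9 lowered (median 0.04). Members of both subunits took part. MNP1 (YGL068W), a large-subunit protein, had signals of 279 and 232 in K42A and of 358 and 396 in K42Q, against 294 and 269 in wild-type replicates 2 and 3 and 232 in replicate 1. MRP1 (YDR347W), of the small subunit, had signals of 236 and 215 in K42A and of 325 and 332 in K42Q, against 313 and 299 in wild-type replicates 2 and 3 and 258 in replicate 1. K42A lay below K42Q on every array, and for MRP1 it lay below wild type too. The matched differences were -0.84 ± 0.15 for MNP1 and -0.79 ± 0.11 for MRP1 (adjusted p = 0.00367 and 0.000881). RSM27 and MRPL44, of the small and the large subunit, differed by -0.82 ± 0.16 and -0.72 ± 0.12. EHD3, an enzyme of valine breakdown that has been found with this ribosome, was called by the matched reading alone at -0.65 ± 0.13. The direct count fell to 7, 5 or 7 genes without K42A replicate 2, K42Q replicate 1 or K42Q replicate 2, and the matched count to 11, 18 or 19 without wild-type replicate 2, K42Q replicate 1 or wild-type replicate 3, while the median stayed between -0.38 and -0.25 relative to all genes in every setting tried.

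The respiratory chain, which passes electrons to oxygen in the same organelle, was less uniform. By the direct reading 6 of 23 genes were lower and 0 higher in K42A (26.1% lower, beside 8.15% of all genes, median -0.29). By the matched reading 3 were lower and 2 higher (median -0.02). These matched shares of 13.0% and 8.7% were near the 9.91% and 8.74% of all genes. CYC1 (YJR048W), the main form of cytochrome c, had signals of 139.9 and 144 in K42A and of 222 and 244 in K42Q, against 94 and 94.5 in wild-type replicates 2 and 3 and 93 in replicate 1. COX5B (YIL111W), the form of a cytochrome oxidase subunit used at low oxygen, had signals of 331 and 317 in K42A and of 477 and 499 in K42Q, against 258 and 242 in wild-type replicates 2 and 3 and 212 in replicate 1. Both genes were raised in either mutant and more so in K42Q, and the difference between mutants was -0.73 ± 0.13 and -0.83 ± 0.14 by the matched reading. QCR2, a core subunit of the complex that reduces cytochrome c, was also lower in both readings (-0.53 ± 0.08 and -0.36 ± 0.10). By contrast NDE1, the outward-facing NADH dehydrogenase, was higher in K42A by the matched reading only (0.75 ± 0.10), as was RIP1, the Rieske iron-sulphur protein (0.66 ± 0.19). NDE1 read 391 and 374 in K42A and 366 and 356 in K42Q, a direct difference of 0.08. Its wild-type signals were 263 and 254 in replicates 2 and 3 and 409 in replicate 1. RIP1 read 149.7 and 113 in K42A and 160 and 173 in K42Q, against 98.8 and 97.9 in wild-type replicates 2 and 3 and 199 in replicate 1, so that the sign of its difference turned between the readings (-0.35 directly). The direct count of lower genes was 2, 2 or 1 without K42A replicate 2, K42Q replicate 1 or K42Q replicate 2, and 13 without wild-type replicate 1.

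Copper genes gave the largest single differences of the direct reading. Cells take up copper through Ctr1 and Ctr3 after reduction at the surface by Fre1, and Cox17 hands it on to cytochrome oxidase. COX17 (YLL009C) had signals of 381 and 355 in K42A and of 757 and 742 in K42Q, against 309 and 286 in wild-type replicates 2 and 3 and 259.7 in replicate 1. K42Q stood apart from every other array there, and the difference was -1.03 ± 0.09 directly and -1.22 ± 0.11 matched (adjusted p = 0.000772 and 8.34e-05). CTR1 (YPR124W) had signals of 158 and 97.7 in K42A and of 679.7 and 682 in K42Q, against 128 and 133 in wild-type replicates 2 and 3 and 359 in replicate 1. CTR3 (YLR411W) had signals of 208 and 73.6 in K42A and of 965 and 1010.4 in K42Q, against 59.1 and 77.8 in wild-type replicates 2 and 3 and 536 in replicate 1. For both transporters K42Q was highest, yet the wild-type arrays differed between background sets in the same direction. The CTR1 difference was -2.45 ± 0.43 directly and -1.0 ± 0.25 matched (adjusted p = 0.0204). The CTR3 difference of -3.0 ± 0.87 became -0.01 ± 0.53 (adjusted p = 0.989), so CTR3 is not called once each mutant is read beside its own wild type. FRE1 was called both ways, at -1.11 ± 0.21 directly and -0.40 ± 0.12 matched. CTR2 (YHR175W), which releases copper from the vacuole, was the member that was higher in K42A: it had signals of 518 and 596 in K42A and of 343 and 324 in K42Q, against 384 and 423 in wild-type replicates 2 and 3 and 436 in replicate 1, a matched difference of 0.85 ± 0.12. In all, 5 of 13 copper genes were lower and 1 higher directly, and 3 lower and 1 higher by the matched reading. The shares lower were 38.5% and 23.1%, beside 8.15% and 9.91% of all genes. The share higher was 7.69% by each reading, beside 9.96% and 8.74%. The direct count of lower genes was 3 without K42A replicate 1 and 1 without K42A replicate 2 or either K42Q array, and the matched count was 1 without wild-type replicate 3.

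Iron genes leaned the other way. Of 28 tested, 8 were higher (28.6%, beside 9.96% of all genes) and 1 lower in K42A directly (median 0.12). By the matched reading 11 were higher (39.3%, beside 8.74% of all genes) and 1 lower (median 0.25). The lower one was FRE1, which reduces iron as well as copper. Both mutants lay below wild type for this list, with 14 genes lowered in K42A and 20 in K42Q and medians of -0.23 and -0.45. The genes that stood out carry iron into the cell on siderophores, small iron binders made by other microbes. ARN2 (YHL047C), a siderophore transporter, had signals of 392 and 297 in K42A and of 200.1 and 192 in K42Q, against 576 and 627 in wild-type replicates 2 and 3 and 612 in replicate 1. ENB1 (YOL158C), the transporter of enterobactin, had signals of 468 and 345 in K42A and of 268 and 240 in K42Q, against 722 and 687 in wild-type replicates 2 and 3 and 757 in replicate 1. SIT1 (YEL065W), the transporter of ferrioxamine B, had signals of 725 and 547 in K42A and of 359 and 336 in K42Q, against 978 and 1003 in wild-type replicates 2 and 3 and 877 in replicate 1. In each, wild type was highest, K42A lay in between and K42Q was lowest, with no overlap. The matched differences were 0.83 ± 0.17, 0.77 ± 0.18 and 0.68 ± 0.16, with adjusted p of 0.00748, 0.0149 and 0.016. HMX1 (YLR205C), the haem oxygenase that recovers iron from haem, did not share this order: it read 167 and 188 in K42A and 112 and 97.5 in K42Q, against 104 and 106 and 107 in the wild-type sets, and differed by 0.79 ± 0.15. CTH1, which marks mRNAs of iron-using proteins for decay, was called by the matched reading alone at 0.72 ± 0.18. It overlapped between the mutants, at 160 and 212 in K42A and 165 and 176 in K42Q (0.11 directly). Wild type read 130 and 140 in replicates 2 and 3 and 205 in replicate 1. Without wild-type replicate 2 or 3 the matched count was 5 or 7 genes, and the direct count was 4 without K42Q replicate 2 and 5 without either K42A replicate 1 or K42Q replicate 1.

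Cell wall mannoproteins of the DAN and TIR family, which replace others in the wall when oxygen is short, were higher in K42A than in K42Q. The list, which also holds genes of haem and sterol supply that respond to oxygen, had 13 genes tested. Of these 7 were higher and 1 lower by each reading, with medians of 0.80 directly and 0.47 matched. That is 53.8% higher by each reading, beside 9.96% and 8.74% of all genes. Against wild type of like background the list was mixed: 6 genes were raised and 2 lowered in K42A (median 0.04), and 4 raised and 4 lowered in K42Q (median 0.15). TIR4 (YOR009W) had signals of 1081 and 979 in K42A and of 327 and 300.2 in K42Q, against 616 and 567 in wild-type replicates 2 and 3 and 358 in replicate 1. DAN1 (YJR150C) had signals of 1323 and 1378 in K42A and of 474 and 306 in K42Q, against 1393 and 1401 in wild-type replicates 2 and 3 and 962 in replicate 1. The genes differ in the side that moved: TIR4 was above wild type of like background in K42A (0.80 ± 0.07), whereas DAN1 was below it in K42Q (-1.34 ± 0.18) and at its level in K42A (-0.05 ± 0.15). TIR2 (YOR010C) had signals of 700.3 and 585 in K42A and of 273 and 240.1 in K42Q, against 299 and 284 in wild-type replicates 2 and 3 and 206 in replicate 1, and differed by 1.32 ± 0.17 directly and 0.82 ± 0.16 matched. The matched adjusted p of TIR4, DAN1 and TIR2 was 0.000406, 0.00437 and 0.00633. DAN4 was called by the direct reading (0.80 ± 0.15) and missed the threshold by the matched one (0.58 ± 0.19, adjusted p = 0.0615). CWP1 (YKL096W), a mannoprotein of aerobic walls, was the lower gene, with signals of 492 and 513 in K42A and of 803 and 845 in K42Q, against 641 and 638 in wild-type replicates 2 and 3 and 633 in replicate 1. It was lowered in K42A and raised in K42Q, a matched difference of -0.73 ± 0.09 (adjusted p = 0.00065). Without K42A replicate 2 or K42Q replicate 2 the direct count of higher genes was 4.

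The related seripauperin genes differed less. Of 12 tested PAU genes 3 were higher in K42A directly (25%, beside 9.96% of all genes, median 0.50). By the matched reading 1 was higher (8.33%, beside 8.74% of all genes, median 0.10). The PAU genes are near-identical copies, and probe sets can read several of them. Against wild type of like background 10 were raised in K42A and 6 in K42Q, and none was lowered in either.

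A few mating genes were higher in K42A, and by the matched reading their share was near that of all genes. The pheromone pathway runs from the receptor through a MAP kinase cascade to genes of cell fusion, and Ste50 is an adaptor of that cascade. Of 26 tested genes 5 were higher and 0 lower directly (19.2% higher, beside 9.96% of all genes; median 0.15), and 3 higher and 1 lower by the matched reading (11.5% higher, beside 8.74% of all genes; median 0.21). Against wild type of like background 10 were raised and 7 lowered in K42A (median 0.04), and 7 raised and 9 lowered in K42Q (median -0.12). STE50 (YCL032W) had signals of 144 and 144 in K42A and of 83.3 and 83.6 in K42Q, against 73.5 and 66.2 in wild-type replicates 2 and 3 and 78.8 in replicate 1. FIG2 (YCR089W), an adhesin of the mating projection, had signals of 671 and 859.9 in K42A and of 338 and 388 in K42Q, against 176 and 182 in wild-type replicates 2 and 3 and 136 in replicate 1. STE50 was raised in K42A alone, while FIG2 was raised in both mutants and more in K42A. The matched difference was 0.96 ± 0.14 for STE50 and 0.67 ± 0.17 for FIG2, with adjusted p of 0.00127 and 0.0225. FUS1, needed for fusion of mating cells, differed by 0.68 ± 0.12. These 3 genes all lie on chromosome III, where 35 of 112 genes were higher by the matched reading (described below), as does KAR4, which was called by the direct reading alone. The lower gene by the matched reading was GIC2, an effector of Cdc42, at -0.40 ± 0.11. Its direct difference had the other sign (0.16), with signals of 380 and 422 in K42A and of 373 and 346 in K42Q. Wild type read 576 and 540 in replicates 2 and 3 and 379 in replicate 1. PRM10 was called directly at 0.91 ± 0.19 and not by the matched reading (0.68 ± 0.26). The direct count of higher genes was 2 without K42A replicate 2 or K42Q replicate 2 and 9 without wild-type replicate 1, and the matched count was 5 without K42A replicate 1.

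A pair of further genes tied to mating stood among the largest increases although they were outside that list. PRM7 (YDL039C), induced by pheromone, had signals of 276 and 344 in K42A and of 151 and 147 in K42Q, against 169 and 153 in wild-type replicates 2 and 3 and 199 in replicate 1. ASG7 (YJL170C), a gene of a cells that dampens pheromone signalling after mating, had signals of 194 and 218 in K42A and of 112 and 116 in K42Q, against 93.3 and 91.2 in wild-type replicates 2 and 3 and 131 in replicate 1. Both differed by 1.36 by the matched reading, with SE of 0.17 for PRM7 and 0.13 for ASG7, and ASG7 was raised in K42A alone. Yet the genes that mark a cells as such did not follow. STE2, the receptor of a cells, differed by 0.25 ± 0.13 (adjusted p = 0.211), and STE6, MFA1 and MFA2 were not called in either reading. BAR1, the protease that degrades alpha factor, was called by the matched reading at -0.28 ± 0.09. All 5 of these lay below wild type of like background in both mutants. SAG1, the agglutinin of alpha cells, read 234 and 269 in K42A and 175 and 157 in K42Q, against 153 and 153 in wild-type replicates 2 and 3 and 121 in replicate 1.

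Synthesis and uptake of branched-chain amino acids had 5 of 14 genes higher and 0 lower in K42A by the matched reading (median 0.25). That is 35.7% higher, beside 8.74% of all genes. The direct reading called 2 higher and 1 lower, and its median of -0.03 had the other sign, as it did not under quantile scaling (0.06) or cyclic loess (0.05). ILV1 (YER086W), the threonine deaminase that starts isoleucine synthesis, had signals of 1008 and 979.8 in K42A and of 615 and 637 in K42Q, against 1165 and 1151 in wild-type replicates 2 and 3 and 1228 in replicate 1. BAP2 (YBR068C), a permease for these amino acids, had signals of 607 and 694 in K42A and of 441 and 452 in K42Q, against 659 and 625 in wild-type replicates 2 and 3 and 709 in replicate 1. K42Q was lowest for both genes, and K42A lay near or at the level of wild type. The differences were 0.67 ± 0.07 and 0.75 ± 0.09 for ILV1 and 0.54 ± 0.09 and 0.68 ± 0.11 for BAP2. BAP3, ILV6 and ILV3 were called by the matched reading alone, at 0.32, 0.35 and 0.41. In each of them the K42A and K42Q arrays overlapped, with direct differences of -0.01, 0.03 and -0.01. Wild-type replicates 2 and 3 differed from replicate 1 there by -0.32, -0.33 and -0.42. Without K42Q replicate 1, wild-type replicate 2 or wild-type replicate 3 the matched count was 2 genes, and without K42A replicate 2 or either K42L array it was 3.

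Growth-related groups differed between the readings. Genes of ribosome biogenesis, which build the cytosolic ribosome in the nucleolus, had 42 of 112 lower and 5 higher in K42A by the matched reading (median -0.24). That is 37.5% lower and 4.46% higher, beside 9.91% and 8.74% of all genes. By the direct reading 8 were lower and 4 higher (median -0.05). These shares of 7.14% and 3.57% lay under the 8.15% and 9.96% of all genes. In K42A 75 of the 112 genes were lowered against wild type of like background (median -0.29), and in K42Q 32 (median -0.02). Wild-type replicates 2 and 3 lay 0.17 above replicate 1 in the median of this list. RIX1 (YHR197W), which acts in maturation of the large subunit, had signals of 299 and 295 in K42A and of 294 and 307 in K42Q, against 433 and 415 in wild-type replicates 2 and 3 and 251 in replicate 1. K42A and K42Q overlapped there (-0.02 ± 0.21 directly), wild-type replicates 2 and 3 lay above them and replicate 1 below, and the matched difference was -0.77 ± 0.09. IPI3 (YNL182C), from the same complex, was lower both ways (-0.51 ± 0.13 and -0.80 ± 0.16). UTP4, of the complex that processes the small subunit, had -0.77 ± 0.15 by the matched reading alone. The matched count of lower genes was 27, 25 or 22 without K42Q replicate 1, wild-type replicate 2 or wild-type replicate 3. The direct count of lower genes was 4 or 1 without K42A replicate 1 or 2, 1 or 3 without K42Q replicate 1 or 2, and 17 without wild-type replicate 1.

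DBP2 and KRR1 opposed the list. DBP2 (YNL112W), an RNA helicase, had signals of 842 and 891 in K42A and of 496 and 460 in K42Q, against 1031 and 1010.3 in wild-type replicates 2 and 3 and 994 in replicate 1. KRR1 (YCL059C), a factor of the small subunit encoded on chromosome III, had signals of 379 and 386 in K42A and of 268 and 226 in K42Q, against 307 and 315 in wild-type replicates 2 and 3 and 375 in replicate 1. The differences were 0.86 ± 0.07 and 0.82 ± 0.10 for DBP2 and 0.64 ± 0.11 and 0.91 ± 0.12 for KRR1. K42Q was lowest for both genes. Genes for the proteins of the cytosolic ribosome were seldom called between the mutants. Of 76 large-subunit genes 2 were lower directly and 3 by the matched reading, with none higher. Of 53 small-subunit genes 5 and 1 were lower and 0 and 1 higher. The shares lower were 2.63% and 3.95% in the large-subunit list, and 9.43% and 1.89% in the small-subunit list. Those of all genes were 8.15% and 9.91%. The medians of these lists were -0.23 and -0.21 directly, against -0.01 for all genes, and 0.07 by the matched reading in either list. Wild-type replicates 2 and 3 differed from replicate 1 by medians of -0.32 and -0.30 in these lists.

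Genes that peak at the entry into S phase turned sign between the readings. By the direct reading 2 of 31 were higher and 0 lower in K42A (median 0.14). That is 6.45% higher, below the 9.96% of all genes. By the matched reading 1 was higher and 12 lower (median -0.33). That is 3.23% higher and 38.7% lower, beside 8.74% and 9.91% of all genes. CLB6 (YGR109C), an S-phase cyclin, had signals of 119 and 108 in K42A and of 96 and 109.7 in K42Q, against 291 and 300.1 in wild-type replicates 2 and 3 and 92.1 in replicate 1. CLN2 (YPL256C), a G1 cyclin, had signals of 195 and 158 in K42A and of 205 and 213 in K42Q, against 329 and 341 in wild-type replicates 2 and 3 and 191 in replicate 1. The mutants overlapped or nearly so, and wild-type replicates 2 and 3 stood above all other arrays. The matched differences of -1.54 ± 0.16 and -1.06 ± 0.15 therefore come with direct ones of 0.14 ± 0.46 and -0.25 ± 0.24 that were not called. YOX1, TOS4 and MCD1 showed the same arrangement, with matched differences of -1.17, -0.80 and -0.70. The matched count of lower genes was 6 without wild-type replicate 3, and the direct count of higher genes was 9 without wild-type replicate 1 and 0 without any 1 of the mutant arrays. The largest matched difference of any gene was of this kind. PHO84 (YML123C), the phosphate transporter, chosen after its values were seen, had signals of 552 and 639 in K42A and of 689.9 and 655 in K42Q, against 756 and 852 in wild-type replicates 2 and 3 and 41.6 in replicate 1. Its matched difference was -4.45 ± 0.14, whereas K42A and K42Q differed by -0.18 ± 1.14 directly.

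**Figure D4:**
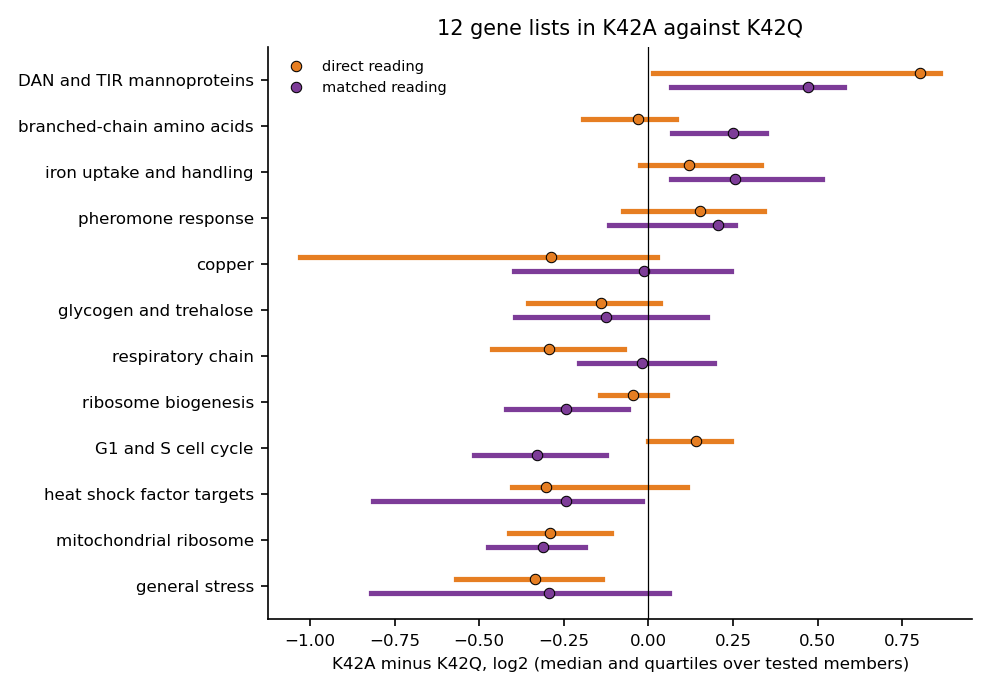
Median (point) and quartiles (bar) of the difference between K42A and K42Q (log2) over the tested members of 12 gene lists, by the direct and the matched reading. The DAN and TIR list lies highest (0.80 and 0.47), general stress and the mitochondrial ribosome lie below 0 by both readings, and the G1 and S list lies on opposite sides of 0; scaling to the spiked-in RNAs adds 0.87 or nearly so to each direct median.

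Histone genes, measured because H3 itself is altered, showed little difference. Of 8 tested, 1 was lower directly (12.5%, beside 8.15% of all genes) and 0 by the matched reading. HHT2 (YNL031C), an H3 gene, had signals of 1549 and 1354 in K42A and of 1826 and 1759 in K42Q, against 1633 and 1683 in wild-type replicates 2 and 3 and 1739 in replicate 1, and differed by -0.31 ± 0.09 directly (adjusted p = 0.0393) and -0.24 ± 0.11 by the matched reading (adjusted p = 0.17). Its probe set cannot tell K42A from K42Q, and so is no check of the labels. The variant HTZ1 differed by 0.29 ± 0.11 directly (adjusted p = 0.101) and 0.00 ± 0.12 matched, and the linker histone HHO1 by 0.10 ± 0.18 and -0.46 ± 0.16 (adjusted p = 0.062). HTA2, HHF1, HTB1, HTB2 and HTA1 were not called in either reading. The probe sets of HTA2 and HHF1 are shared with other genes, so their signals cannot be assigned to these genes alone. Of the genes of silencing and H3 modification, 1 of 34 was higher and 2 lower directly, and 1 higher and 1 lower by the matched reading. These shares of 2.94% to 5.88% lay below those of all genes, which were 8.15% to 9.96%.

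Among the remaining genes called higher in K42A both ways, RCR1 led. RCR1 (YBR005W), a membrane protein that affects chitin in the wall, had signals of 360.2 and 465 in K42A and of 208 and 195 in K42Q, against 157 and 181 in wild-type replicates 2 and 3 and 244 in replicate 1. It was raised in K42A (1.28 ± 0.12) and not called in K42Q (-0.28 ± 0.15), a matched difference of 1.56 ± 0.19 (adjusted p = 0.000505). SDS24 (YBR214W) and DIA1 (YMR316W) were raised in both mutants and more in K42A: SDS24 read 374 and 397 in K42A and 249 and 226 in K42Q, and DIA1 350.1 and 494 in K42A and 229.8 and 213 in K42Q. Their matched differences were 1.19 ± 0.12 and 1.10 ± 0.21. YPK2, a protein kinase that acts in sphingolipid signalling, rose in K42A alone and differed by 1.14 ± 0.16.

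Other members of this group were set apart by a fall in K42Q. MPC3 (YGR243W), a subunit of the mitochondrial pyruvate carrier, had signals of 179 and 206 in K42A and of 103 and 104 in K42Q, against 213 and 194 in wild-type replicates 2 and 3 and 222 in replicate 1. CTP1 (YBR291C), the mitochondrial citrate carrier, had signals of 806 and 645 in K42A and of 409 and 468 in K42Q, against 687 and 690.2 in wild-type replicates 2 and 3 and 811 in replicate 1. In both, K42A lay at the level of wild type of like background and K42Q below it, at -1.10 ± 0.16 and -0.89 ± 0.12. YCL049C, an uncharacterised gene on chromosome III, had signals of 400.2 and 348 in K42A and of 180.4 and 169.6 in K42Q, against 294 and 283 in wild-type replicates 2 and 3 and 340.4 in replicate 1. It was raised in K42A (0.37 ± 0.08) and lowered in K42Q (-0.96 ± 0.10), and the matched difference of 1.33 ± 0.12 had an adjusted p of 0.000111. LSB5, an adaptor of endocytosis also on chromosome III, moved in the same opposed way and differed by 1.01 ± 0.10.

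Among the remaining genes lower in K42A both ways, several encode inhibitors of vacuolar proteases and enzymes of sugar metabolism. PBI2 (YNL015W), the inhibitor of vacuolar proteinase B, had signals of 231 and 211 in K42A and of 477 and 441 in K42Q, against 243 and 234 in wild-type replicates 2 and 3 and 224 in replicate 1. TFS1 (YLR178C), the inhibitor of carboxypeptidase Y, had signals of 499 and 494 in K42A and of 814 and 911 in K42Q, against 206 and 189 in wild-type replicates 2 and 3 and 165 in replicate 1. PBI2 rose in K42Q alone, and TFS1 in both mutants and more in K42Q, with matched differences of -1.15 ± 0.13 and -1.05 ± 0.14. The vacuolar protease list, of which PBI2 is itself a member, had 3 of 13 genes lower and 1 higher directly. By the matched reading 7 were lower and 1 higher (median -0.34). The shares lower were 23.1% and 53.8%, beside 8.15% and 9.91% of all genes. The share higher was 7.69% by each reading, beside 9.96% and 8.74%. GRE3 (YHR104W), an aldose reductase, read 626 and 645 in K42A and 1127 and 1184 in K42Q, a matched difference of -1.08 ± 0.09. GND2, the minor 6-phosphogluconate dehydrogenase, gave -1.03 ± 0.17. REE1 (YJL217W), which has been tied to control of an enolase, read 465 and 387 in K42A and 865 and 994 in K42Q, against 431 and 405 and 426 in the wild-type sets, and differed by -1.10 ± 0.14. KTI11, which acts in the modification of elongation factor and of tRNA, differed by -1.04 ± 0.18, and the uncharacterised YBR053C by -0.87 ± 0.15. REE1, KTI11 and YBR053C were raised in K42Q and not called in K42A.

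The 433 genes called by the direct reading alone, 242 higher and 191 lower, include some with large differences. Their leading members besides CTR3 were YSR3, IMD2, YBR071W, YEL076C-A and SAM3 on the higher side and HSP31, COA4, YKR075C and ITC1 on the lower side. YSR3 (YKR053C), a phosphatase of sphingoid base phosphates, had signals of 183 and 189 in K42A and of 85.7 and 72.5 in K42Q, against 82.1 and 90.7 in wild-type replicates 2 and 3 and 47.5 in replicate 1. IMD2 (YHR216W), an IMP dehydrogenase whose probe set is shared with other genes, had signals of 560.4 and 535 in K42A and of 285 and 233 in K42Q, against 650.2 and 558 in wild-type replicates 2 and 3 and 312 in replicate 1. For YSR3 the matched difference was 0.38 ± 0.16 (adjusted p = 0.125) after 1.24 ± 0.25 directly, and for IMD2 0.14 ± 0.15 after 1.09 ± 0.28. In IMD2, K42A stood with wild-type replicates 2 and 3 and K42Q near replicate 1. ITC1 (YGL133W), a subunit of the Isw2 chromatin remodelling complex, read 119 and 143 in K42A and 239 and 234 in K42Q, against 113 and 118 and 152 in the wild-type sets, and its matched difference of -0.45 ± 0.15 had an adjusted p of 0.0547. For HSP31 and YKR075C the matched values were -0.40 and -0.65, and for COA4, an assembly factor of cytochrome oxidase, -0.46. For SAM3, the S-adenosylmethionine permease, YBR071W and YEL076C-A they were 0.31, 0.35 and 0.23, on the same side as the direct values of 0.97, 1.06 and 1.05.

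Position on the chromosomes, looked at after the values had been seen and given without a test, set chromosome III apart. Of its 112 tested genes 57 were higher and 3 lower in K42A by the direct reading (50.9% higher, beside 8.8% of the genes on all other chromosomes), with a median of 0.33. By the matched reading 35 were higher and 3 lower, with a median of 0.28 (31.3% higher, beside 8.1% elsewhere). Against wild type of like background 74 of its genes were raised and 5 lowered in K42A (median 0.31), while in K42Q 33 were raised and 23 lowered (median 0.07). In 6 successive runs of 18 or 19 tested genes along the chromosome the direct median was between 0.26 and 0.42 and the matched median between 0.20 and 0.36, so the difference was spread over its length. The median for chromosome II, with 301 genes tested, was 0.16 directly and 0.13 matched, with 66 and 47 genes higher (21.9% and 15.6%, beside 9.96% and 8.74% of all genes). That direct count was 12 to 24 without any 1 of the K42A or K42Q arrays and 124 without wild-type replicate 1, and the matched one 29 or 26 without wild-type replicate 2 or 3. The median for chromosome I was 0.19 and 0.11, and for each of the other chromosomes it lay between -0.06 and 0.04 directly. Of the 165 genes higher in K42A both ways (4.04% of all genes), 30 were among the 112 of chromosome III and 31 among the 301 of chromosome II. In 15 successive runs along chromosome II the direct median was between -0.07 and 0.29. The direct count for chromosome III was 28, 25, 21 or 15 without K42A replicate 1, K42A replicate 2, K42Q replicate 1 or K42Q replicate 2, and the matched count was 23 or 20 without wild-type replicate 2 or 3. The median stayed between 0.22 and 0.39 relative to all genes in every setting of either reading. Its cause was not tested.

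**Figure D5:**
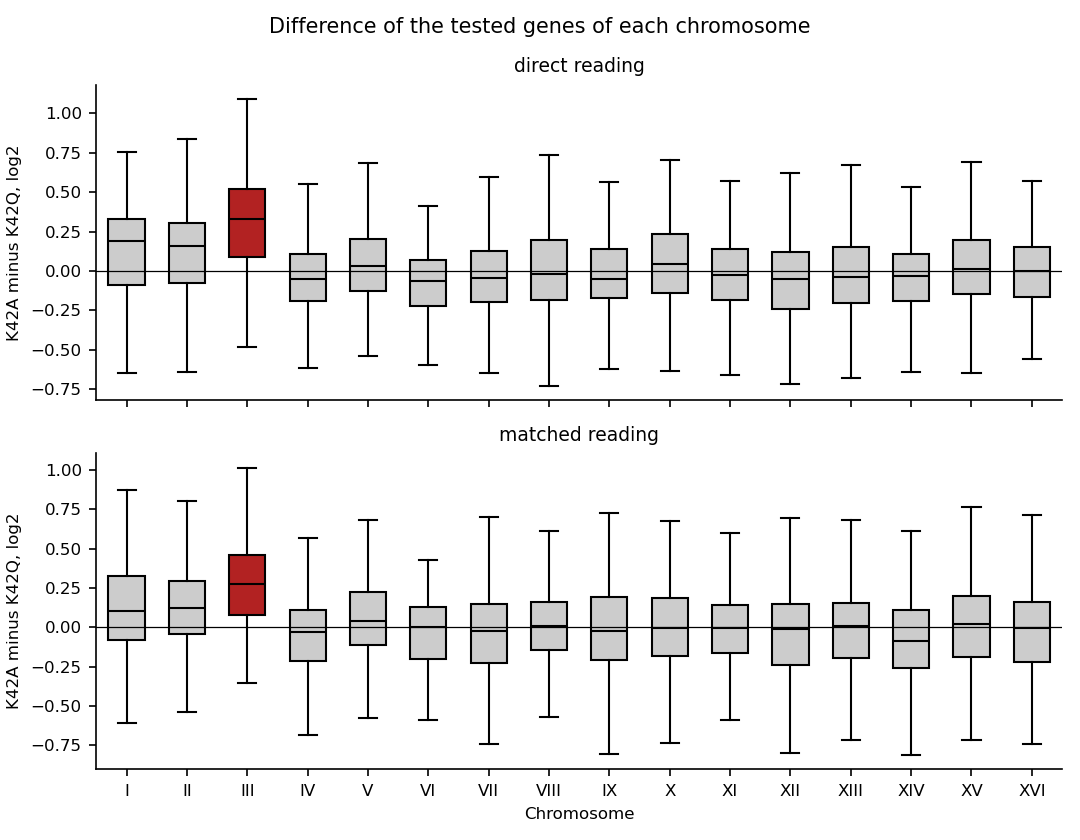
Difference between K42A and K42Q (log2) of the tested genes of each of the 16 chromosomes, by the direct reading above and the matched reading below; boxes show the median and quartiles, whiskers reach the furthest gene within 1.5 times the box height, and points beyond are not drawn. Chromosome III, coloured, has medians of 0.33 and 0.28, and chromosomes I and II follow.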

How the data were processed

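The files hold linear signal intensities as deposited, which the authors made with GCOS 1.4 and MAS5 per the submitters' processing notes. Neither the MAS5 version nor its scaling target is given in the sources used here. After trimming 2 percent from each end, every array had a mean of 150.1, and the median signal of tested genes was 251 to 260 on the K42A and K42Q arrays. The RNA had been extracted with hot phenol and a column and labelled with biotin by T7 amplification in 1 round, per the labels' protocols.

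The log2 signals were used unscaled, after 126 zeros among 98352 values had been replaced by 0.1. The brightest of a gene's probe sets stood for it. Of 5449 genes, 4087 reached the 25th percentile of the mean, equal to a signal of 87.0, and entered the tests. The 1747 probe sets that the annotation names with anything but a single gene of the RefSeq table of this yeast gave each array's background. The midpoint between arrays split the arrays into 2 sets. Gene names and gene order came from the array annotation and a RefSeq gene table.

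The linear model (limma 3.58.1, R 4.3.3) had a mean per group over all 9 arrays, so that all groups share 1 spread, and empirical Bayes moderation that follows intensity. The matched reading added the background set as a fixed block. Calls were made at an adjusted p under 0.05, by Benjamini-Hochberg over all genes tested. The fits were also run on simulated arrays with changes planted in K42A and no difference between background sets. That run cannot show how either reading behaves under the split by background. Python 3.11.15 with matplotlib 3.10.9 drew the plots. Precision is limited by the number of arrays.

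Genes were named by rule: the 14 largest matched differences in each direction among genes called both ways, the 5 largest in each direction among genes called directly alone, all tested histone genes, up to 5 called members with the largest matched difference of each of 12 lists, and strain markers. Other genes are said to be chosen after their values were seen. The comparison, the lists and the rule were chosen with earlier results of these data known, so no list is independent evidence of its direction. Lists are described by counts and medians, with no set test. Alternatives were other scalings, filters, probe set rules, moderation and array sets, the replicate number as a block and leaving out each array. Deviations of same-numbered replicates from their group means correlated at -0.16 between K42A and K42Q, 0.03 between K42A and K42L and -0.30 between K42Q and K42L, so the numbers were not taken to pair the cultures. Promoter and protein sequences were not used here.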

Additional observations from a re-analysis of the deposited data

Results flagged for a closer look

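Outside the genes tested, 199 bright probe sets that are controls or that the annotation names with no gene were looked at, and 7 of them had both arrays of a mutant at least 2.5 times above the brightest wild-type array. No test was run on these.

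Probe set 1773061_s_at stood above wild type in both mutants, at 1156 and 1185 in K42A and at 1473 and 1746 in K42Q, against 218 to 255 in wild type. In K42A the lower array was at 1156, and in K42Q it was at 1473.1. Probe set 1774824_at was highest in K42A, at 1033.7 and 1088, with 550.2 and 415 in K42Q, against 263 to 308 in wild type. Probe set 1779659_at had the same order, at 582.5 and 868 in K42A and 388 and 294 in K42Q, against 107 to 126 in wild type.

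K42Q was higher for 2 probe sets. Probe set 1776204_at read 194 and 165 in K42A and 398 and 341.6 in K42Q, against 112 to 122 in wild type. Probe set 1777999_at read 178 and 162 in K42A and 223 and 212.2 in K42Q, against 53.8 to 84 in wild type.

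Among the controls, the probe set of the 3′ end of 25S ribosomal RNA read 252.3 and 558.3 in K42A and 105.1 and 98.9 in K42Q, against 48.3 to 89.7 in wild type. A reporter control, RPTR-Sc-U46493-1_s_at, read 696.4 and 769 in K42A and 842 and 475 in K42Q, against 138 to 238 in wild type.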

How the results depend on the processing

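The split of the arrays by background is the main limit: K42A and K42Q lie in different sets, and K42Q has 1 wild-type array in its own. No call rests on more than 2 arrays a mutant, and depth has no counterpart here beyond a signal well above background. Genes called by the direct reading numbered 407 higher and 333 lower. Lower genes numbered 544 under quantile scaling. Scaling to the spiked-in RNAs gave 2625 higher and 3 lower, array weights 693 and 650, the 4 compared arrays alone 656 and 636, and a 2-fold threshold 14 and 11. Array background as a number gave 163 higher (from 407), and leaving out the K42L arrays 221 lower. Leaving out 1 array gave 64 to 873 higher and 59 to 848 lower, the lowest without K42Q replicate 2 and the highest without wild-type replicate 1. The counts were 188 and 153 without K42A replicate 1, 105 and 69 without K42A replicate 2, 103 and 64 without K42Q replicate 1, and 222 or 223 lower without a K42L array. By the matched reading (357 and 405) spike-in scaling gave 135 and 139, the filter at the 50th percentile 233 higher, and a 2-fold threshold 20 and 26. Leaving out 1 array gave 194 to 414 higher and 211 to 471 lower, with 194 and 211 without wild-type replicate 2 and 198 and 234 without wild-type replicate 3. Genes called both ways numbered 165 and 142, and 54 to 155 higher and 54 to 124 lower without any 1 array; without K42Q replicate 2, 51 and 47 of the 54 and 54 were among the 165 and 142. Spike-in scaling gave 117 higher and 1 lower both ways, with 22 genes called in opposite directions by the readings, array weights gave 17 genes in opposite directions, and the replicate block 51 and 53 called both ways; quantile scaling gave 223 lower and median centring 227. Without the filter on dim genes 1916 genes were higher in K42A and 1551 in K42Q than wild type of like background. These alternatives for lists and for genes called both ways were chosen after seeing the data.

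The replicate number as a block gave 294 higher and 232 lower by the direct reading, and 108 and 138 by the matched one, with 600 and 561 genes lower than wild type of like background in K42A and K42Q. The numbers do not pair the cultures, so a call lost under this block says nothing of its size. Since the numbers of K42A and K42Q deviated in opposite ways, the crossed pairing was tried after seeing the data, and it gave 454 higher and 401 lower.

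Among 101 named genes, scaling to the spiked-in RNAs turned the sign of 42 direct differences, against a median of all genes of 0.87. In 29 of these the gene passed the test before or after: HTB2 0.80, HTA2 0.70, KTI11 0.12, HHF1 0.77, YBR053C 0.24, HSP26 0.048, MCD1 0.87, BAP3 0.87, HTB1 0.70, HTA1 0.72, MRP1 0.33, SSA4 0.18, MNP1 0.31, ITC1 0.020, RSM27 0.24, GND2 0.12, GRE3 0.014, RIX1 0.86, COX5B 0.28, ILV3 0.87, CYC1 0.16, SOD1 0.53, CWP1 0.16, TFS1 0.081, MRPL44 0.27, HHT2 0.57, MFA2 0.73, IPI3 0.36 and QCR2 0.35. The other 13 passed in neither: SSA3 0.34, EHD3 0.52, UTP4 0.54, MFA1 0.12, URA3 0.74, RIP1 0.52, BAR1 0.74, STE6 0.70, TOS4 0.66, CPR6 0.44, GSY2 0.62, YOX1 0.71 and CLN2 0.62. The background block turned 9: BAP3 0.32, GIC2 -0.40, RIP1 0.66, CLB6 -1.54 and ILV3 0.41 passed the test in one of the readings, and MFA1 0.020, URA3 0.13, MFA2 0.24 and HHO1 -0.46 in neither. Array background as a number turned 12: GIC2 -0.46, CLB6 -1.43, IMD2 -0.0044 and CTR3 0.15, and, with no call in either, BAP3 0.33, MFA1 0.16, URA3 0.20, RIP1 0.72, ILV3 0.42, MFA2 0.33, HTZ1 -0.034 and HHO1 -0.38. The turns under other settings were all of genes that passed the test in neither: HTB2 0.031, HTA2 0.00098, HTA1 0.039 and ILV3 0.043 under quantile scaling, HTB2 0.027 and ILV3 0.082 under cyclic loess and ILV6 -0.025 under median centring. Leaving out 1 array turned 11 such genes, with ranges of BAP3 -0.036 to 0.021, CTH1 -0.088 to 0.32, HHO1 -0.051 to 0.25, ILV3 -0.12 to 0.10, ILV6 -0.049 to 0.10, LEU2 -0.0049 to 0.26, MCD1 -0.12 to 0.11, MFA2 -0.32 to 0.035, RIX1 -0.047 to 0.013, STE2 -0.044 to 0.15 and YOX1 -0.36 to 0.040. The remaining alternatives of the direct reading turned none of the named genes they tested, and the cause of the turns was not tested beyond the shift of the whole array under spike-in scaling.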

Other observations

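Of the 44 gene lists, 43 had at least 4 tested genes. The median lay above 0 by both readings in 11 of these, below 0 by both in 21, and on opposite sides in 11. Purine synthesis, which feeds nucleotide pools, had 1 of 24 genes higher and 0 lower in K42A directly (median -0.21). By the matched reading 8 were higher and 2 lower (33.3% and 8.33%, beside 8.74% and 9.91% of all genes, median 0.14). ADE17 (YMR120C), for the enzyme of the last steps of that pathway, was chosen after its values were seen. It read 252 and 245 in K42A and 793 and 989 in K42Q, against 137 and 122 in wild-type replicates 2 and 3 and 1415 in replicate 1. The direct difference was -1.83 and the matched one 1.62, so the sign depends on the wild-type array that is set beside K42Q. Phosphate genes had 2 of 19 higher and 2 lower directly (10.5% each, beside 9.96% and 8.15% of all genes). By the matched reading 1 was higher and 8 lower (42.1% lower, beside 9.91% of all genes).

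Of all genes, 9.96% were higher directly and 8.74% by the matched reading. Drug efflux genes, which pump toxic compounds out of the cell, had 5 of 19 higher and 1 lower in K42A directly. By the matched reading 5 were higher and 0 lower (26.3% higher by each reading), and 2 were called both ways. Genes that peak in G2 and M had 2 of 32 higher directly and 5 by the matched reading (6.25% and 15.6%), with none lower. The proteasome showed little, with 2 of 36 higher directly (5.56%) and 1 higher and 1 lower by the matched reading (2.78% each). In the DNA damage list 2 of 22 were higher and 1 lower by each reading (9.09% and 4.55%). Against wild type of like background 15 of this list were raised in K42A and 9 in K42Q, where 27.2% and 22.6% of all genes were. Thiamine and vitamin B6 genes were raised in either mutant, 10 of 15 each, beside the same 27.2% and 22.6% of all genes. Between the mutants 1 was higher and 1 lower directly (6.67% each).

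HIS3 (YOR202W) read 2480 and 2383 in K42A and 1852 and 326 in K42Q, so K42Q replicate 2 stood apart from all other arrays for this gene. Its difference between K42A and K42Q was 1.64 ± 0.59 directly (adjusted p = 0.0775 in limma).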
